A study of Mus musculus with 6 samples.

Results

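The receptors of VEGF, angiopoietin and apelin, with 2 of their ligands, were read in RNA from mononuclear cells of tumour-bearing mouse muscle. Genes were chosen by symbol, as angiogenic receptors and ligands of muscle endothelium: Kdr, Flt1, Flt4, Nrp1, Nrp2, Tek, Tie1, Angpt2, Aplnr and Vegfa. All 10 were found, 1 row each, among the 17030 genes of the deposited table. The mononuclear cells came from skeletal muscle, and the 6 mice were C57BL/B6 males with LLC (Lewis lung carcinoma) tumours. In 3 of them the genotype was Pax7 Cre ErT x IKKbfl/fl, called Pax7-CreERT here, and in the other 3, the controls, it was IKKbfl/fl. All 6 mice thus carried the floxed allele of IKKb, the catalytic kinase upstream of canonical NF-kB, and all received tamoxifen on days 10 to 14 after the tumour cells were injected. Cre was driven by Pax7, a gene of satellite cells, and only part of the mononuclear cells are of that lineage. No group had Cre without the floxed allele, so Cre itself and loss of IKKb cannot be told apart. Every mouse bore a tumour, and the effect of the tumour was not measured. The comparison of the groups asks whether the vascular receptors of the tissue differ when IKKb is removed from Pax7-lineage cells.

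Vascular endothelial growth factors act on endothelial cells through receptor tyrosine kinases. Kdr (VEGFR2) carries most of the growth and permeability signal, Flt1 (VEGFR1) binds VEGF-A tightly but signals weakly and acts largely as a decoy, and Flt4 (VEGFR3) binds VEGF-C and VEGF-D and is the main receptor of lymphatic vessels. The neuropilins Nrp1 and Nrp2 are coreceptors that also bind semaphorins. Tek (TIE2) is the angiopoietin receptor that keeps vessels quiescent when bound by angiopoietin 1, Tie1 is its orphan partner, and angiopoietin 2 (Angpt2), released by endothelial cells themselves, usually antagonises it. Aplnr is the G protein-coupled receptor of apelin, prominent in growing vessels and veins, and Vegfa is made by many cells, muscle fibres and macrophages among them.

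Levels are in CPM, meaning reads per 1000000 reads assigned to genes. The libraries held an estimated 4054000 to 13350000 reads, so that each member was covered by at least 177 reads in every library and its counting SD was at most 7.52%. Ikbkb measured 48.4 to 57.4 CPM over the 6 libraries (log2 fold change -0.04, SE 0.13, limma adjusted p = 0.970), and gene totals do not separate the floxed exons. Pax7, whose promoter lineage defines the Cre group, measured 10.85 to 21.56 CPM (log2 fold change 0.07, SE 0.24, limma adjusted p = 0.976). Control replicate 3 stands apart: it was the shallowest library and haemoglobin made up 12.6% of its CPM, against 1.84% to 4.83% elsewhere. Results are therefore given with and without it where it matters. Endothelial cells were present in every library: 15 pan-endothelial markers, led by Cd93 and Pecam1, summed to 8454 to 10246 CPM in Pax7-CreERT and 8151 to 10693 CPM in controls, and none was at 0. In mixed cells such as these, fewer cells of a type and less RNA per cell cannot be told apart.

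The upstream sequences of Kdr, Flt1 and Tek are shown because these are the signalling VEGF receptor, its decoy and the angiopoietin receptor, which the ratios described below set against each other or against their ligands. RefSeq promoters (GRCm38.p6) were matched for 8 of the 10 members, and in all 8 the start of an entry equalled that of the deposited table. Each sequence runs 5′ to 3′ from position -210 to -11 before the transcribed bases, 200 bases, and capitals mark the ETS motif CNGGAAG, a core bound by endothelial ETS factors.
Kdr, chr5:75978466-75978665, minus strand: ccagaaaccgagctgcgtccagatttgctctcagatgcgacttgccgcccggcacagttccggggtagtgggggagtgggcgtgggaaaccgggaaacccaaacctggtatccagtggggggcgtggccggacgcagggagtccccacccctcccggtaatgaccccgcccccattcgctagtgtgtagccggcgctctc
Flt1, chr5:147726022-147726221, minus strand: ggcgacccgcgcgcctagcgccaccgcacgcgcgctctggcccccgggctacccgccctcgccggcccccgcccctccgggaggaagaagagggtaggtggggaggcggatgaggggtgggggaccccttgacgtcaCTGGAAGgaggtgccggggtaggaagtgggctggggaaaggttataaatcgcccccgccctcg
Tek, chr4:94739079-94739278, plus strand: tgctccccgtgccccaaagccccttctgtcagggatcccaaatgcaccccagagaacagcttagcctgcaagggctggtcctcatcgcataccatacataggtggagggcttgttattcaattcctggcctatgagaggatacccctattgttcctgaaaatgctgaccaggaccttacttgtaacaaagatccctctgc
The ETS motif, searched on both strands, occurred in 3 of the 8 windows: Flt1, Flt4 and Tie1. It was present in 22.2% of 32851 promoter windows of the same length. The GC box GGGCGG occurred in 6 of the 8 against 29.9% of all windows. For the hypoxia motif only the form ACGTG was searched (13.8% of windows), and it occurred in 0 of the 8. The form GCGTG was not searched, and it can be read in the Kdr sequence above and on the other strand of the Flt1 sequence. The 0 therefore does not mean that the windows lack a hypoxia motif. These are letter matches in a short window and say nothing about binding.

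Levels per length ordered the members from Nrp1 and Flt1, whose ranges overlapped, down to Flt4. Dividing CPM by the kilobases of merged coding-transcript exons (GENCODE M21, GRCm38), Nrp1 stood at 263 ± 31.1 and Flt1 at 173 ± 35.9 CPM per kilobase (SD, n = 6 libraries). Kdr followed at 98.6 ± 9.06, Tek at 81.8 ± 10.3 and Tie1 at 81.6 ± 8.83, and the ranges of these 3 overlapped. Aplnr stood at 54.3 ± 15.6 CPM per kilobase and reached 83.7 in its highest library, so that its range overlapped those of Tek and Tie1 above it and of Nrp2 (38.6 ± 5.32) below it. Vegfa (14.0 ± 2.74), Angpt2 (13.3 ± 2.77) and Flt4 (10.5 ± 1.93) stood lowest, with ranges that overlapped each other and not that of Nrp2. Flt1 was above Kdr in every library with either length used. With the length of the longest transcript in place of the merged exons, Flt1 (275 ± 57.1) stood before Nrp1, Tie1 before Tek and Nrp2 before Aplnr, in each case within overlapping ranges.

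**Figure D1:**
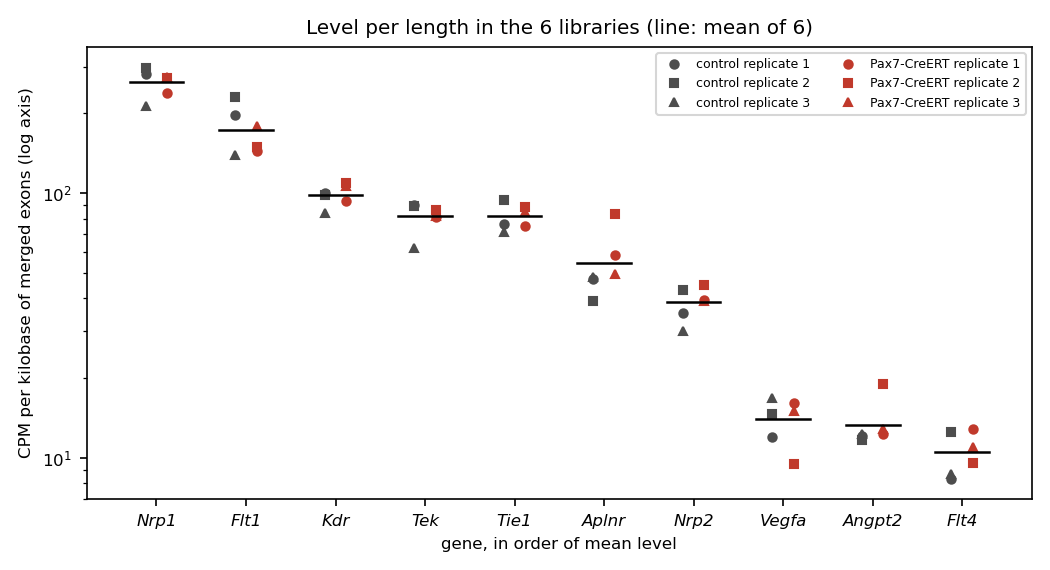
Levels of the 10 genes in CPM per kilobase of merged exons, on a log axis, in order of their mean over 6 libraries (line). Symbols are single libraries, grey for control and red for Pax7-CreERT. Nrp1 and Flt1 lead, and Vegfa, Angpt2 and Flt4 lie lowest.

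Kdr, the signalling VEGF receptor (mm10 chromosome 5, 75932827 to 75978455, minus strand), was among the steadiest members. It measured 554, 648 and 629.5 CPM in Pax7-CreERT replicates 1, 2 and 3 and 591, 584 and 499 CPM in the controls. The groups overlapped, and control replicate 3 was lowest. Kdr averaged 610.4 ± 50.1 CPM in Pax7-CreERT and 558 ± 51.2 CPM in controls (SD over 3 mice). Its log2 fold change was 0.13 (SE 0.15, limma adjusted p = 0.922), and the 95% interval ran from a change of -12.7% to one of 37.2%. Without control replicate 3 the log2 fold change was 0.05.

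Flt1, the decoy receptor and the most abundant member in CPM (chromosome 5, 147561604 to 147726011, minus strand), had the lowest fold change of the 10. It measured 1577, 1638 and 1960 CPM in Pax7-CreERT and 2160.2, 2527.5 and 1529.7 CPM in controls. Control replicates 1 and 2 lay above all Pax7-CreERT libraries, while control replicate 3 lay below them. Means of 1725 ± 206 and 2073 ± 505 CPM differed by -0.24 on the log2 scale (SE 0.23, adjusted p = 0.910). Without control replicate 3 the value was -0.44, and the groups then no longer overlapped, as was so for 21.3% of all genes in those 5 libraries. Gene totals pool the full-length receptor with the shorter coding transcript that GENCODE lists at this locus, so membrane and soluble forms were not separated.

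Flt4, the lymphatic VEGF receptor (chromosome 11, 49609679 to 49652739, plus strand), was the faintest member per length. Its values were 80.2, 59.8 and 68.8 CPM in Pax7-CreERT and 52.2, 78.3 and 54.3 CPM in controls. The groups overlapped, with the highest library in one and the next highest in the other. The log2 fold change was 0.19 (SE 0.18, adjusted p = 0.914) and depended on single libraries. It was 0.37 without control replicate 2 (adjusted p = 0.806), when the groups did not overlap, as was so for 22.2% of all genes. Without Pax7-CreERT replicate 2 it was 0.29. It was 0.08 without Pax7-CreERT replicate 1 or without control replicate 1, 0.11 without control replicate 3, and 0.005 once control replicate 3 and Pax7-CreERT replicate 1 were both left out. The summed level of 8 lymphatic markers did not follow Flt4 library by library. It was 910 CPM, its highest, in Pax7-CreERT replicate 1, where Flt4 was highest too. It was 491 CPM, its lowest, in control replicate 2, where Flt4 was next highest. The next highest sum, 677 CPM, was that of control replicate 3. Summed fibro-adipogenic progenitor and macrophage markers were highest in the same libraries as this sum, and the part of those cells in it was not tested.

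**Figure D2:**
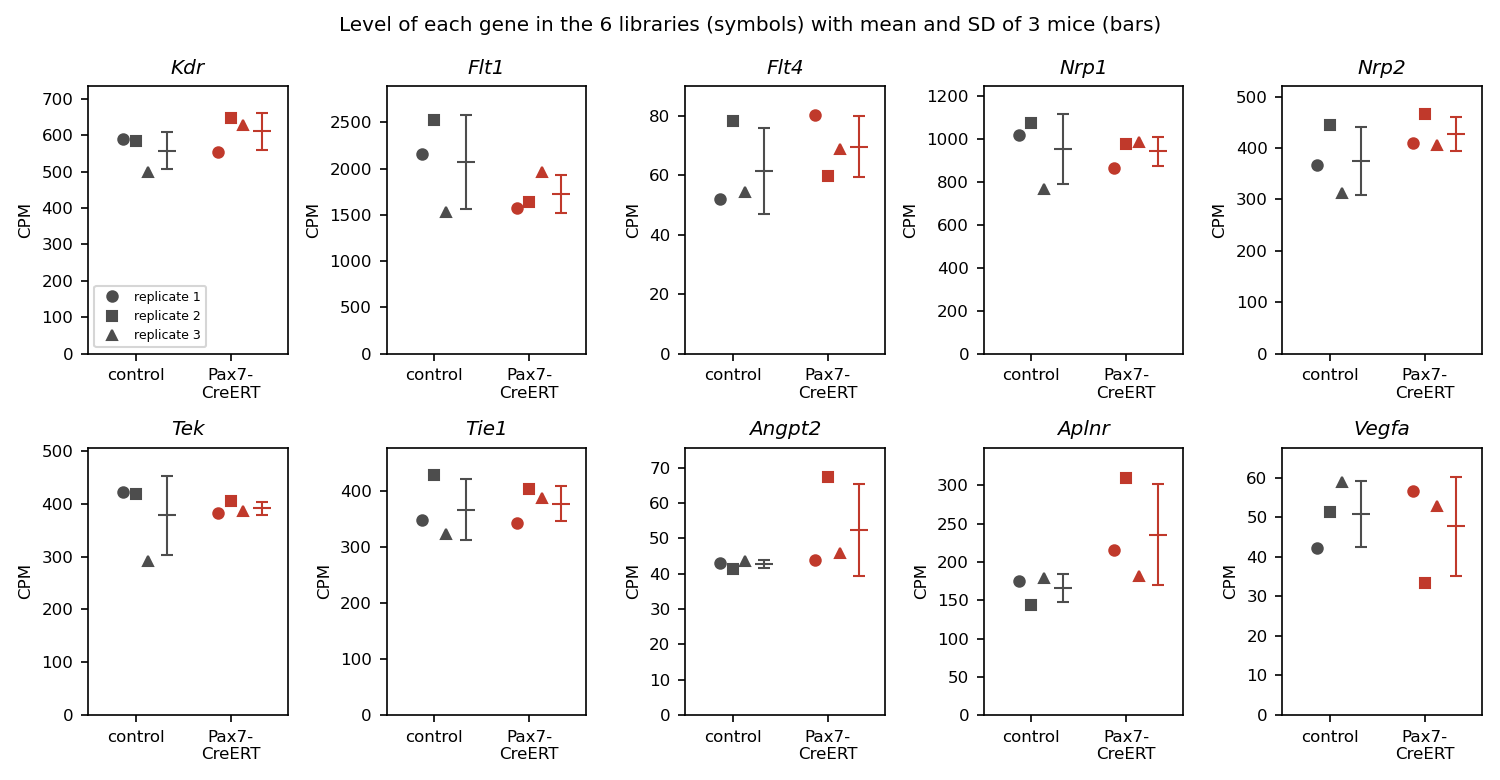
CPM of each gene (vertical axes from 0) in control (grey) and Pax7-CreERT (red) libraries. Symbols are replicates 1 to 3, and bars are the mean with SD of 3 mice. The groups overlap for 8 genes, and the exceptions are Angpt2 and Aplnr, whose highest value is that of Pax7-CreERT replicate 2.

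Both neuropilins had overlapping groups. Nrp1 (chromosome 8, 128359073 to 128505475, plus strand) measured 861, 977 and 984 CPM in Pax7-CreERT and 1016, 1072 and 767 CPM in controls, with control replicate 3 lowest. Its log2 fold change was -0.004 (SE 0.18, 95% interval -0.40 to 0.39, adjusted p = 0.997), the closest to 0 of the 10. Without control replicate 3 it was -0.15 and the groups no longer overlapped, as was so for 21.3% of all genes. Nrp2, the coreceptor of lymphatic and venous endothelium (chromosome 1, 62703317 to 62818692, plus strand), measured 411, 466 and 406 CPM against 367, 445 and 313 CPM. Its groups overlapped too, and the log2 fold change was 0.20 (SE 0.16, adjusted p = 0.899), which was 0.08 without control replicate 3. Leaving out control replicate 2 in its place gave 0.33, with the groups apart, as they then were for 22.2% of all genes. Set relative to the pan-endothelial markers of the same library, Nrp2 was the 1 member whose groups did not overlap, against 11.1% of all genes on that scale. A gene on the other strand inside Nrp2, 4930487H11Rik, reached at most 7.79 CPM.

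Neither angiopoietin receptor differed between genotypes beyond its spread. Tek (chromosome 4, 94739289 to 94874976, plus strand) measured 382, 406 and 386 CPM in Pax7-CreERT and 423, 419 and 292 CPM in controls. The Pax7-CreERT libraries lay within 23.7 CPM of each other, and control replicate 3 was the outlying value of the controls. Tie1, its partner (chromosome 4, 118471191 to 118489849, minus strand), measured 342, 402 and 386 CPM against 348, 428 and 323 CPM. In both genes the groups overlapped. The log2 fold changes were 0.07 (SE 0.17, adjusted p = 0.965) for Tek and 0.05 (SE 0.15, adjusted p = 0.973) for Tie1. Without control replicate 3 they were -0.11 and -0.04. The groups of Tek were then apart, as were those of 21.3% of all genes.

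Angpt2, the TIE2 ligand that endothelial cells release (chromosome 8, 18690263 to 18741562, minus strand), was level in 5 libraries and higher in 1. It measured 43.8, 67.4 and 45.8 CPM in Pax7-CreERT and 43.0, 41.4 and 43.7 CPM in controls. The groups did not overlap, but Pax7-CreERT replicate 1 exceeded control replicate 3 by 0.173 CPM, less than the counting SD of either value (2.15 and 3.28 CPM). Means of 52.3 ± 13.1 and 42.7 ± 1.18 CPM differed by 0.26 on the log2 scale (SE 0.17, adjusted p = 0.896). Without Pax7-CreERT replicate 2 it was 0.07. Angpt2 lies within the locus of Mcph1 on the other strand, which measured 5.77 to 10.6 CPM and was lowest, at 5.77 CPM, in Pax7-CreERT replicate 2. Whether strand was used in counting is not given in the sources used here.

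Aplnr, the apelin receptor (chromosome 2, 85136360 to 85139923, plus strand), had the highest fold change of the 10 and varied most between libraries. It measured 216, 309.6 and 182 CPM in Pax7-CreERT and 175, 144 and 179 CPM in controls. Every Pax7-CreERT library lay above every control, by 3.31 CPM at the nearest, where the counting SDs were 6.09 and 6.64 CPM. Means were 236 ± 66.1 and 166 ± 18.8 CPM, a ratio of 1.42, and the log2 fold change was 0.47 (SE 0.19, 95% interval 0.04 to 0.91). Adjusted over all genes it missed the threshold (adjusted p = 0.891). Permuting the mice exactly gave a 2-sided p of 0.1, the least that groups of 3 allow. Of all tested genes 3.73% had a smaller p. Without Pax7-CreERT replicate 2 the log2 fold change was 0.26. When the library totals were rescaled the groups overlapped: with TMM factors (trimmed mean of M values) Aplnr was 179.9 CPM in Pax7-CreERT replicate 3 and 194 CPM in control replicate 3.

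The ligand of this receptor stood highest in the same library. Apln, the apelin gene, measured 5.57, 18.6 and 8.96 CPM in Pax7-CreERT and 5.18, 4.18 and 5.18 CPM in controls (log2 fold change 0.90, SE 0.35, adjusted p = 0.891). Pax7-CreERT replicate 2 held the highest Apln, Aplnr and Angpt2 of the 6 libraries. It was also the deepest library and had the highest summed level of 8 pericyte markers, 10252 CPM against 6394 to 8274 CPM elsewhere. The part of these in the result was not tested.

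Vegfa, the ligand of Kdr and Flt1 (chromosome 17, 46016993 to 46032377, minus strand), was lowest in that library. It measured 56.7, 33.5 and 52.9 CPM in Pax7-CreERT and 42.1, 51.3 and 58.96 CPM in controls, and the groups overlapped throughout. Means of 47.7 ± 12.5 and 50.8 ± 8.43 CPM differed by -0.11 on the log2 scale (SE 0.21, adjusted p = 0.953), which was 0.12 without Pax7-CreERT replicate 2 and -0.0001 without control replicate 3. The 2 libraries with the highest Vegfa, control replicate 3 and Pax7-CreERT replicate 1, also had the highest summed level of 10 macrophage markers, 1322 and 920 CPM against 492 to 652 CPM in the others. They were likewise highest in 10 fibro-adipogenic progenitor markers, at 5183 and 5925 CPM against 3158 to 3323 CPM. Their part in the Vegfa values was not tested.

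Across the 10 members, none passed at an adjusted p under 0.05, where 0.00677% of the 14763 tested genes did. At an unadjusted p under 0.05 there was 1 member, Aplnr, which was higher in Pax7-CreERT, against 5.52% of all genes in either direction and 4.58% higher. The groups did not overlap for 2 members, both higher, against 11% of all genes in either direction and 8.69% higher, and with TMM factors, or with erythroid genes left out of the library total, for 0. Fold changes were above 0 in 7 members and below 0 in 3, and 68% of all tested genes were above 0. The median log2 fold change was 0.10 for the members and 0.09 for all tested genes. With TMM factors both medians were near 0, at 0.007 and 0.003. In counts and median the members were close to all tested genes.

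**Figure D3:**
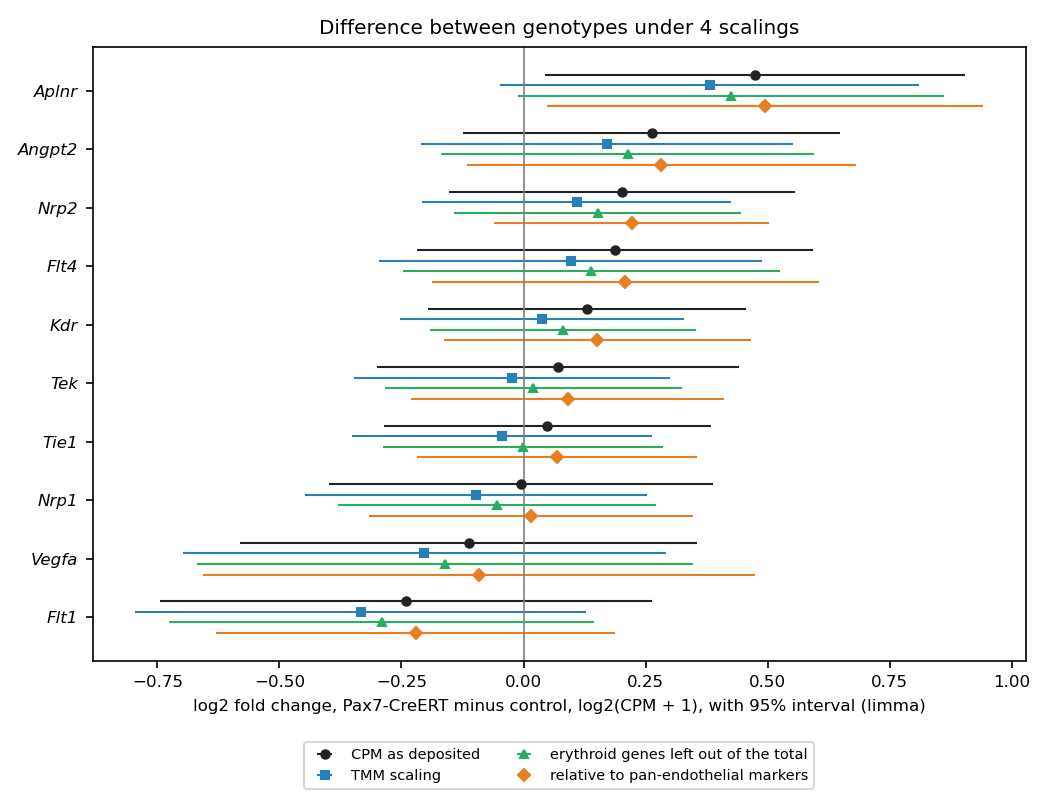
Log2 fold changes of the 10 genes (Pax7-CreERT minus control, horizontal axis) with 95% limma intervals under 4 scalings of the libraries. The intervals include 0 throughout, except for Aplnr with CPM as deposited (0.04 to 0.91) and relative to pan-endothelial markers (0.05 to 0.94).

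The members were also compared by their patterns across libraries. Positions were taken as log2(CPM + 1) minus the mean of the 6 libraries. Nrp1, Tek, Tie1, Kdr and Nrp2 followed one another: Nrp1 and Tek differed by a root mean square of 0.07, Nrp1 and Tie1 by 0.10, and Kdr and Tie1 by 0.10. The least alike pair among these genes, Nrp1 and Nrp2, differed by 0.14. Aplnr and Vegfa were the most unlike pair at 0.56, followed by Aplnr and Flt1 at 0.55. Control replicate 3 was the lowest library for 6 of the 10 members (Kdr, Flt1, Nrp1, Nrp2, Tek and Tie1) and for 39.8% of all tested genes. With erythroid genes left out of the total it was lowest for 4 members and for 28% of all tested genes. With TMM factors it was lowest for 2 members (28.2% of all genes), and Pax7-CreERT replicate 1 for 4 (15.9%). The pan-endothelial markers were lowest in control replicate 3 as well, at a position of -0.17, and highest in control replicate 2 at 0.22. The median of all tested genes stood at -0.12 and -0.005 in those libraries.

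**Figure D4:**
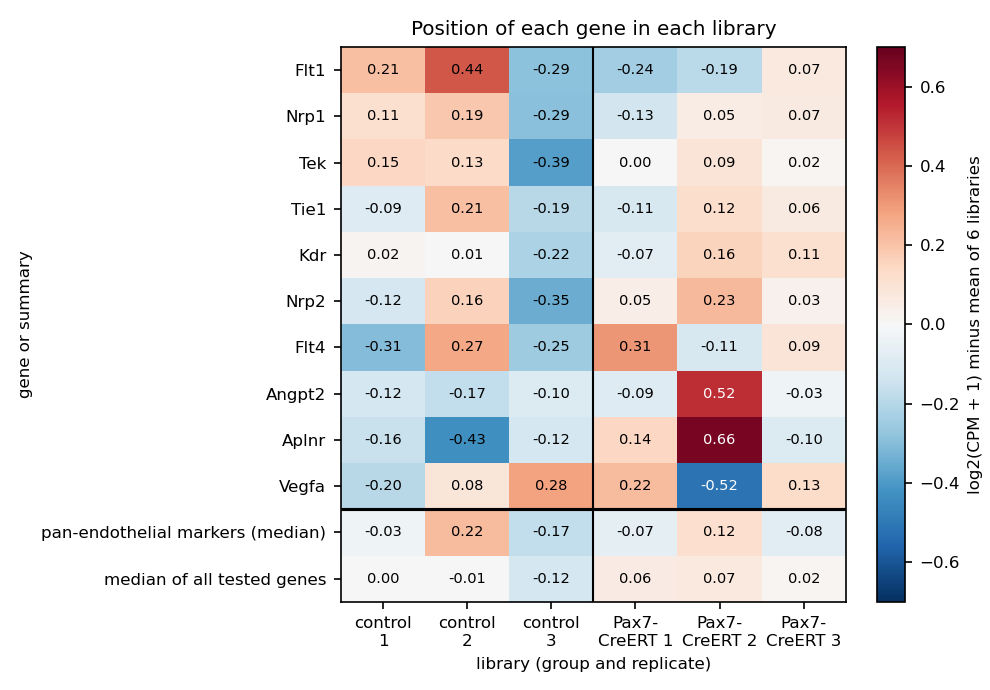
Position of each gene in each library (columns), as log2(CPM + 1) minus its mean over the 6 libraries, with the numbers printed in the cells. Blue is low and red is high. Control replicate 3 is low for the 6 leading receptors, and Pax7-CreERT replicate 2 is high for Angpt2 (0.52) and Aplnr (0.66) and low for Vegfa (-0.52).

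Ratios of (CPM + 1) within a library were compared between genotypes for 6 pairs. The library total cancels in them apart from the added 1, which matters most for faint genes. With a constant of 0.1 in its place the difference for Angpt2 to Angpt1 moved from -0.28 to -0.32. The ratio of Flt1 to Kdr, decoy to signalling receptor, was 1.51, 1.34 and 1.64 in Pax7-CreERT and 1.87, 2.11 and 1.61 in controls on the log2 scale. The groups overlapped by 1 pair of libraries, Pax7-CreERT replicate 3 and control replicate 3. Without control replicate 3 they no longer overlapped, and the difference in means was -0.50 (exact permutation p of 0.2, the least that 3 against 2 allow). Of all single genes 21.3% had groups apart in those 5 libraries, and the share of gene pairs was not computed. Over all 6 libraries the difference was -0.37, with an exact permutation p of 0.2 (0.6 adjusted over the 6 ratios). For Nrp2 to Nrp1 the difference was 0.21, with the same p-values, and the ratio ranged from -1.28 to -1.07 in Pax7-CreERT and from -1.47 to -1.27 in controls. Tie1 to Tek was the most even ratio between genotypes, with means of -0.06 ± 0.09 and -0.04 ± 0.22 and a difference of -0.02 (exact permutation p = 0.8). Angpt2 to Angpt1, antagonist to agonist of TIE2, averaged 1.88 ± 0.58 in Pax7-CreERT and 2.16 ± 0.33 in controls (difference -0.28, exact p = 0.6). The differences for Angpt2 to Tek and Vegfa to Kdr were 0.19 (exact p = 0.5) and -0.24 (exact p = 0.6). With 3 mice against 3, no ratio could go below an exact p of 0.1.

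**Figure D5:**
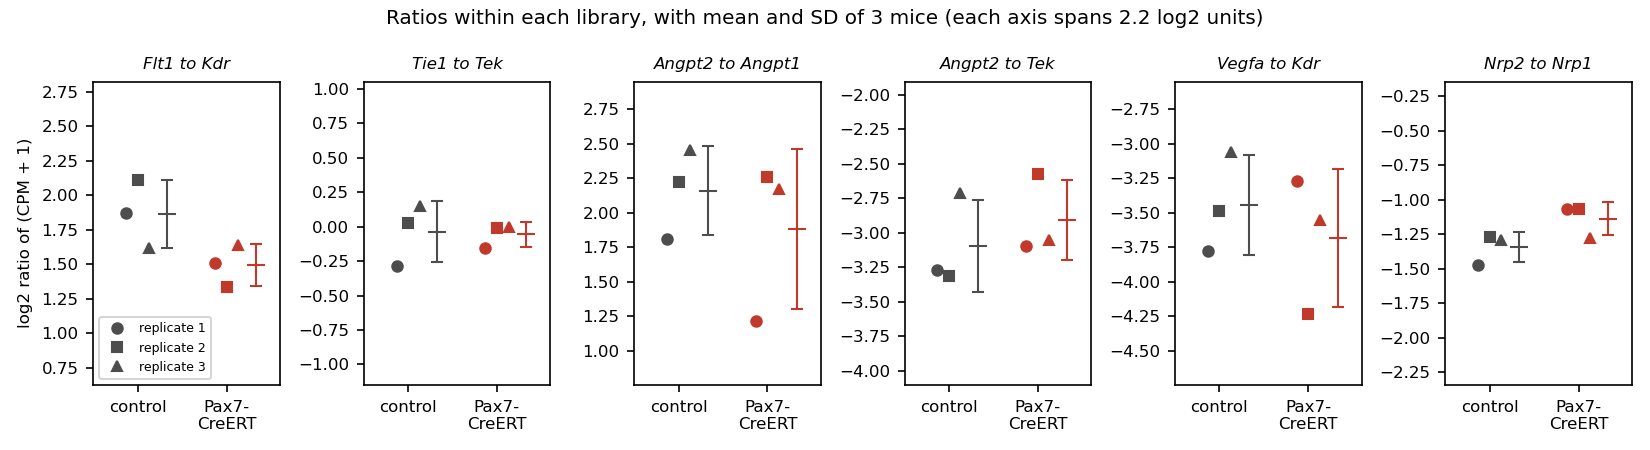
Log2 ratios of (CPM + 1) within each library for 6 gene pairs, in control (grey) and Pax7-CreERT (red). Symbols are replicates 1 to 3, bars are the mean with SD of 3 mice, and each vertical axis spans 2.2 log2 units. The groups overlap in all 6 panels, least in Flt1 to Kdr and in Nrp2 to Nrp1.

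The wider pathway gave no gene past the threshold: 121 genes of 8 lists were tested, and 0 passed in either direction. At an unadjusted p under 0.05 there were 5, or 4.13% beside 5.52% of all tested genes, and the groups did not overlap for 13, or 10.7% beside 11%. Their median log2 fold change was 0.13, with 89 above 0 and 32 below, where all tested genes had a median of 0.09 and 68% above 0. With TMM factors, which put 50.8% of all tested genes above 0, the pathway genes divided into 67 above and 54 below (median 0.04). The counts of each list below are read against these shares. Other VEGF ligands were faint. Vegfb measured 2.77 ± 0.680 against 1.51 ± 0.470 CPM and Pgf, the Flt1-specific placental growth factor, 7.17 ± 0.317 against 9.76 ± 2.10 CPM (adjusted p = 0.896 for both), each without overlap of the groups. The gaps were small: Vegfb was 1.997 CPM in Pax7-CreERT replicate 1 and 1.886 in control replicate 2, where 1 read was 0.105 and 0.135 CPM. Pgf was 7.53 CPM in Pax7-CreERT replicate 3 and 8.02 in control replicate 1, where 1 read was 0.204 and 0.167 CPM. Angpt1, the TIE2 agonist of mural cells, measured 13.6 ± 4.48 against 8.92 ± 2.31 CPM (log2 fold change 0.54, adjusted p = 0.896). The 6 tested angiopoietin-like, angiopoietin and apelin ligands all had fold changes above 0, with a median of 0.34 (0.25 with TMM factors).

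Among 20 receptor regulators and coreceptors 19 had fold changes above 0 (median 0.16), and 16 with TMM factors (median 0.07). Plxnd1, a semaphorin receptor of endothelium, measured 137 ± 22.8 against 105 ± 3.67 CPM without overlap (adjusted p = 0.891), and the syndecan Sdc2 66.8 ± 17.0 against 46.9 ± 5.86 CPM (adjusted p = 0.891). Signalling components divided into 23 above and 9 below 0 (median 0.05), or 13 and 19 with TMM factors, led in p by the kinase gene Pik3ca at 173 ± 14.0 against 149 ± 18.4 CPM and the transcription factor gene Foxo1 at 83.7 ± 6.68 against 70.6 ± 13.6 CPM. Of 19 VEGF-induced and tip cell genes 14 were above 0 and 5 below (median 0.18), or 13 and 6 with TMM factors, with the laminin gene Lama4 at 243 ± 19.5 against 200.4 ± 4.62 CPM. Esm1 and Dll4, tip cell genes named after their values were seen, had log2 fold changes of -0.24 and -0.06. Endothelial transcription factors had 11 above and 8 below (median 0.03), or 5 and 14 with TMM factors, with the flow-induced Klf2 at 298 ± 44.4 against 243 ± 52.0 CPM and Foxc2, a regulator of lymphatic valves, at 3.29 ± 0.952 against 2.04 ± 0.491 CPM.

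The regulators of Vegfa by oxygen divided evenly, 6 above and 6 below, with a median of -0.007 (4 and 8 with TMM factors). Hif1an, which encodes the asparagine hydroxylase that restrains HIF, measured 39.7 ± 3.03 against 29.3 ± 5.71 CPM without overlap (log2 fold change 0.44, adjusted p = 0.891), and Hif3a 5.07 ± 1.26 against 9.57 ± 5.11 CPM (-0.72, adjusted p = 0.896). Matrix and soluble antagonists of angiogenesis had 8 above and 2 below (median 0.35), also with TMM factors (median 0.26). Col18a1, the collagen from which endostatin is cut, measured 55.2 ± 7.27 against 41.2 ± 4.83 CPM without overlap (log2 fold change 0.41, adjusted p = 0.891). With TMM factors its groups overlapped, and 1 gene of the list had groups apart where 2 had as deposited. The chemokine gene Cxcl10 measured 6.87 ± 1.81 against 4.70 ± 1.30 CPM.

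Markers of the vessel segments were read beside the receptors, and 0 passed in any of these lists. Counts above 0 stand beside 68% of all tested genes, and the first 2 genes named for each list are its most abundant. Of 15 pan-endothelial markers 6 had fold changes above 0 and 9 below (median -0.02), with 0.16 for Cd93 and -0.13 for Pecam1 on the log2 scale. Of 10 arterial markers 4 were above and 6 below (-0.05), with -0.18 for the semaphorin gene Sema3g and 0.07 for the ephrin gene Efnb2. Of 8 venous markers 4 were above and 4 below (0.008), with 0.10 for Selenop and 0.19 for Vwf, the von Willebrand factor gene. With TMM factors, which put 50.8% of all tested genes above 0, pan-endothelial markers had 3 above and 12 below (median -0.11). Arterial markers then had 3 and 7 (-0.14) and venous markers 3 and 5 (-0.08).

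Capillary markers other than Kdr had 2 above and 7 below (-0.18), or 1 and 8 with TMM factors (-0.28). Their summed levels were 3122 to 3603 CPM in Pax7-CreERT and 3153 to 4751 CPM in controls. The fatty acid carrier gene Cd36 measured 1511 ± 74.6 against 1649 ± 457 CPM (log2 fold change -0.09, adjusted p = 0.967). The lipoprotein lipase gene Lpl, which adipocytes and muscle also express, measured 688 ± 174 against 1234 ± 262 CPM (log2 fold change -0.85, adjusted p = 0.891). With CPM as deposited Lpl was the 1 capillary marker whose groups did not overlap, and with TMM factors there were 2 such markers. Of 8 lymphatic markers 7 were above 0 (0.21), or 6 with TMM factors (0.12), with Fgl2 at 0.13 and Mmrn1 at 0.10 as deposited. Fgl2 alone made up 377 of their summed 910 CPM in Pax7-CreERT replicate 1, and the part of other cells in this list was not tested.

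Other cell types of muscle could contribute RNA to these libraries. All 8 pericyte markers were above 0 (0.27), with Rgs5 at 0.24 and Kcnj8 at 0.17, and the groups did not overlap for 3. All 12 myofibre genes were above 0 (0.85), with the titin gene Ttn at 0.73 and the actin gene Acta1 at 0.88, and the groups did not overlap for 8, where 11% of all tested genes did not. With TMM factors all of both lists were still above 0, with medians of 0.18 and 0.76 and with 3 and 5 apart. Progenitor markers had a median of 0.18 (Dcn -0.06, Gsn 0.08), macrophage markers of 0.02 (Lyz2 0.12, C1qa 0.12) and satellite cell markers of 0.06 (Sdc4 0.02, Itga7 0.23), and the medians of macrophage and satellite cell markers, -0.07 and -0.02, were below 0 with TMM factors. Neutrophil genes had a median of -0.40 (S100a9 -0.44, S100a8 -0.11) and erythroid genes of -0.89 (Hbb-bs -0.89, Hba-a2 -0.84). The part of these cells in the values of the members was not tested.

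Genes whose profile over the 6 libraries was most like that of a member were named by the smallest root mean square difference among 9417 genes of at least 10 CPM. Uaca (0.008) and Marchf6 (0.02) were closest to Tek, and Srsf1 and Abhd18 (both 0.03) to Kdr, where a typical gene differed by 0.21 and 0.18. Closest to Aplnr were Palld (0.07) and Miga2 (0.10), and to Angpt2 Aqp7 (0.06) and Olfr558 (0.07). Vegfa was nearest to Lilr4b (0.07) and Lilrb4a (0.08), a pair of myeloid receptor genes so alike in sequence that reads may be divided between them. Likeness over 6 libraries is a description only.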

How the data were processed

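RNA of mononuclear cells from skeletal muscle of 6 mice was extracted with Trizol and made into libraries with a strand-specific SureSelect kit, per the labels' protocols. The authors deposited CPM, reads per 1000000 assigned reads, with 0.0001 added to each value, as read from the column totals. Partek, DESeq2 and mm10 are named in the submitters' processing notes without their roles; aligner, counting rule, use of strand and annotation are not given in the sources used here. Depth was estimated from the CPM step of 1 read. Between 92.9% and 93.9% of values up to 20 reads were whole within 0.05 read, under the 95% required, so reads were not recovered.

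Ends were taken as the deposited end minus 1. Genotypes were compared with limma 3.58.1 (R 4.3.3) on log2(CPM + 1), with a mean-variance trend, for genes of at least 1 CPM in at least 3 libraries. Adjustment was by Benjamini and Hochberg over all tested genes, and the threshold was 0.05. Fold changes are Pax7-CreERT minus control, and adding 1 shrinks those of faint genes. The fit was also tested on simulated data. Single values and 6 ratios were compared with exact 2-sided permutation tests (scipy 1.17.1). P-values set the difference between genotypes against the variation among these mice. Each mouse gave a single library, so variation between animals and between library preparations was not separated.

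The members, the 20 gene lists and the motifs were chosen with earlier results of these data known. An NF-kB motif was also searched and is not reported here. Named are all members, the 2 genes of smallest p of each pathway list and any passing gene, the 2 highest genes of marker lists, and for 5 members the 2 most alike genes. Alternatives were the constant (0.1), no filter, TMM factors (written without weights), totals without erythroid genes, levels relative to pan-endothelial markers, array weights, no trend, and leaving out libraries.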

Additional observations from a re-analysis of the deposited data

How the results depend on the processing

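No member passed under any of the 14 alternatives, and over the 140 fold changes of single members 127 kept their direction. Of the 13 that turned, all belonged to Nrp1, Tek, Tie1 or Vegfa, and the cause was not tested. Tek was -0.023 with TMM factors, -0.042 with array weights and -0.089 without Pax7-CreERT 1 and control 3 together, and Tie1 was -0.044 with TMM factors, -0.042 with array weights and -0.0012 without erythroid genes in the total. Nrp1 was 0.016 relative to pan-endothelial markers. Leaving out 1 library each, the ranges were -0.15 to 0.089 for Nrp1, -0.11 to 0.16 for Tek, -0.036 to 0.17 for Tie1 and -0.25 to 0.12 for Vegfa. For Kdr the range was 0.05 to 0.20, for Nrp2 0.08 to 0.33 and for Flt4 0.08 to 0.37. For Aplnr it was 0.26 to 0.64, for Angpt2 0.07 to 0.37 and for Flt1 -0.44 to -0.08, each lowest adjusted p being 0.525, 0.744 and 0.652 over all alternatives. Members with groups apart numbered 0 with TMM factors (9.90% of all genes) and 0 without erythroid genes (10.3%). There was 1 relative to pan-endothelial markers (11.1%), and there were 6 without Pax7-CreERT 1 and control 3 together (31.4%). Leaving out 1 library gave 2 to 5, with 4 without control replicate 2 (22.2%) and 5 without control replicate 3 (21.3%), where fewer libraries make separation more frequent. Passing genes over the whole table, 1 in the main analysis, were 2 without the filter, 2 without Pax7-CreERT 1 and control 3 together, 0 relative to pan-endothelial markers, and 0 to 1 leaving out 1 library. Among ratios, without Pax7-CreERT 1 and control 3 together Tie1 to Tek was 0.12 and Angpt2 to Angpt1 0.20. Leaving out 1 library they ran from -0.15 to 0.069 and from -0.47 to 0.057, and Vegfa to Kdr from -0.45 to 0.033. Flt1 to Kdr ran from -0.50 to -0.25, Nrp2 to Nrp1 from 0.14 to 0.28 and Angpt2 to Tek from 0.026 to 0.38. These last ratios kept their direction under all 8 alternatives run for ratios. The share of all genes with fold changes above 0 was 68.0% as deposited and 50.8% with TMM factors, and at an unadjusted p under 0.05 the split of higher to lower was 676 to 139 against 372 to 311. No paired analysis was possible because replicates were numbered by record order, which ties no control mouse to a Pax7-CreERT mouse.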

Other observations

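Timp3, a matrix inhibitor that also blocks binding of VEGF to Kdr, was the most abundant of the angiogenesis antagonists and was chosen here after its values were seen. It measured 2434, 2530.4 and 2884 CPM in Pax7-CreERT and 2991, 3566 and 3331 CPM in controls. The groups did not overlap (log2 fold change -0.33, limma adjusted p = 0.896).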
